A study of Mus musculus with 17 samples.

Results

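Transcripts of 7 genes that mark or set the CD4, CD8 and regulatory T cell lineages were followed in RNA-seq libraries of mouse CD8 T cells: Cd4, Zbtb7b, Cd40lg and Foxp3 on the CD4 side, and Runx3, Cd8a and Cd8b1 on the CD8 side. They were found by symbol among the 24594 genes of the deposited count tables. All 7 were present, and all 7 passed the filter on low counts that left 13881 genes for testing. The libraries came from spleen cells labelled as CD8 T cells of the genotype CD8+Thy1.1+, in 4 groups named by the targeted gene: 4 Asxl1 KO, 4 Dnmt3a KO, 4 Tet2 KO and 5 Rosa KO libraries, the last of these used here as the control. Thy1.1 is a congenic surface marker that all 4 groups carried, and the labels give neither the age of the animals, nor the time after targeting, nor whether replicates came from separate animals. The p-values below therefore measure the spread between libraries, which may be technical. The labels' molecule field names genomic DNA, while the protocols describe RNA, and the tables were read as RNA counts.

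Mature T cells are divided by coreceptor. CD4 binds MHC class II and CD8, a dimer of the products of Cd8a and Cd8b1, binds MHC class I. In the thymus the zinc finger factor ThPOK, encoded by Zbtb7b, holds cells to the CD4 fate and opposes Runx3, while Runx3 silences Cd4 and Zbtb7b and activates the Cd8 genes in CD8 cells. Silencing of Cd4 in mature mouse CD8 T cells is known to be heritable and to involve DNA methylation, which Dnmt3a writes and Tet2 oxidises; Asxl1 is a partner of the deubiquitinase that acts on Polycomb-marked histone H2A. Cd40lg encodes CD40 ligand, the help signal of CD4 T cells to B cells, and Foxp3 encodes the defining factor of regulatory T cells.

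Total counts lay between 6625833 and 40701203 per library, with a median of 21642477. The library numbers in the labels form 3 separated runs, which the labels do not call batches. Run 1 held 4 libraries, run 2 held 5 and run 3 held 8, and run was a term of the model. Rosa KO had 1 library in run 1 and 4 in run 3. Run 2 was without Rosa KO and run 3 without Dnmt3a KO, so that Dnmt3a KO met its control only in run 1. The transcript of the targeted gene did not mark the groups: the adjusted p (edgeR quasi-likelihood test) was 0.836 for Asxl1 in Asxl1 KO, 0.978 for Dnmt3a in Dnmt3a KO and 0.734 for Tet2 in Tet2 KO, each against Rosa KO. Counts per gene do not show changes of sequence.

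No member passed the adjusted p threshold of 0.05 in any of the 6 comparisons between groups, that is in 0 of 42 tests (edgeR quasi-likelihood test, Benjamini-Hochberg adjustment over the 13881 genes). Over all tested genes, 1.64% passed for Asxl1 KO against Rosa KO, 0.216% for Dnmt3a KO against Rosa KO and 1.47% for Tet2 KO against Rosa KO. Between knockouts, 0.353% passed for Asxl1 KO against Dnmt3a KO, 0.562% for Asxl1 KO against Tet2 KO and 0.0937% for Dnmt3a KO against Tet2 KO. At these shares fewer than 1 call among 7 genes would be the background in each comparison. At an unadjusted p under 0.05 there were 9 member tests: 1, 1 and 1 for the knockouts against Rosa KO, and 1, 3 and 2 for the pairs of knockouts in the order above. Over all tested genes that level was reached by 15.7, 8.03 and 12.2% for the knockouts against Rosa KO and by 10.99, 7.21 and 5.60% for the pairs, so that 1 of 7 members is near the background. The 3 of 7 for Asxl1 KO against Tet2 KO and the 2 of 7 for Dnmt3a KO against Tet2 KO were above it. This excess was not tested. DESeq2 on the same counts called 1 member, Cd8a in Asxl1 KO against Rosa KO. On the log2 CPM scale (CPM being counts scaled to a common library size by TMM) Cd4 had the widest spread of the members over the 17 libraries, with an SD of 2.23, while on the CPM scale the coefficient of variation was 166% for Foxp3, 141% for Cd40lg and 126.9% for Cd4. The Cd4 levels in Dnmt3a KO did not overlap those of any other group. Nor did Cd8a and Cd8b1 between Dnmt3a KO and Tet2 KO, or Cd8b1 between Tet2 KO and Rosa KO. The share of all tested genes whose ranges do not overlap was not counted, so how unusual this is cannot be said. Dnmt3a KO also had no library in the run that held most Rosa KO libraries.

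**Figure D1:**
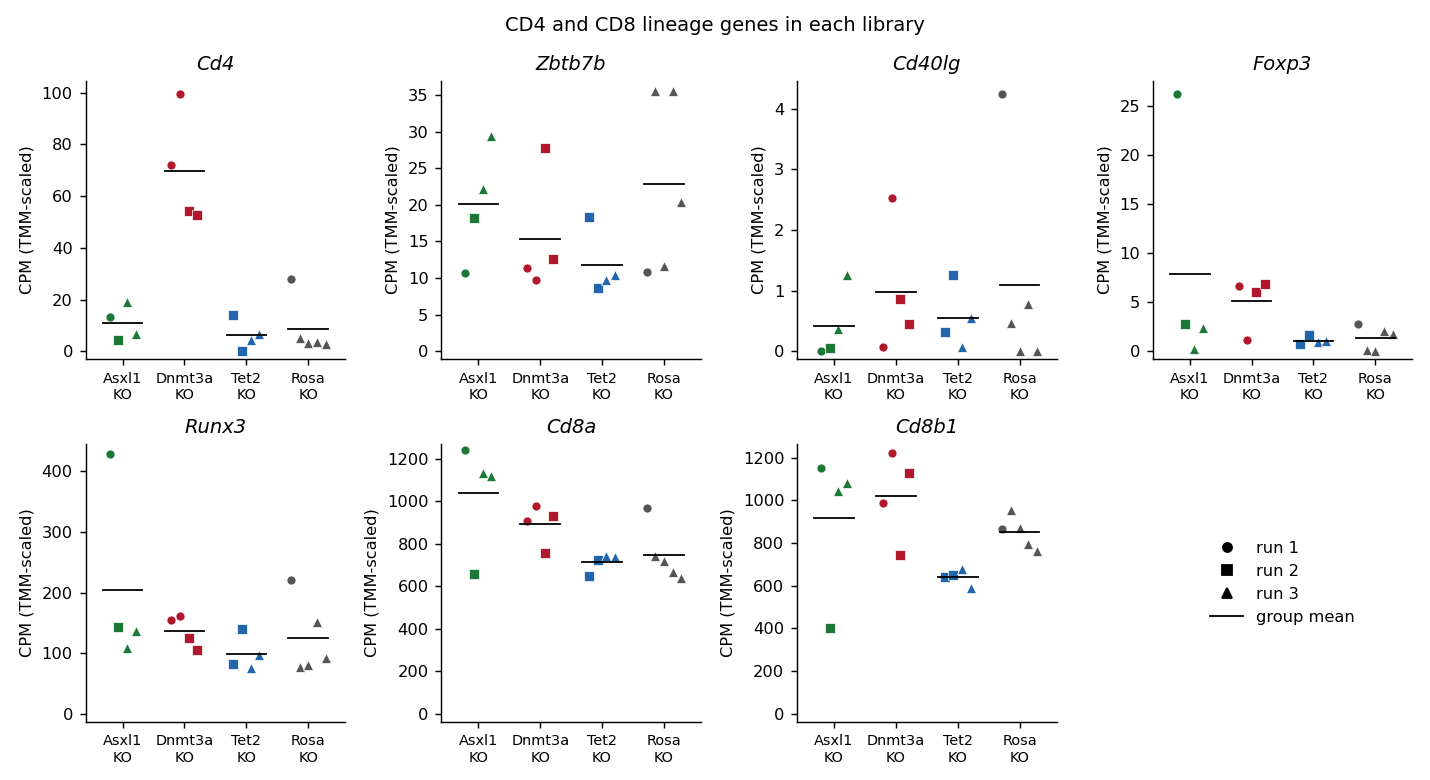
Level of each of the 7 genes in the 17 libraries, in TMM-scaled CPM on linear axes of different height, by group (Asxl1 KO, Dnmt3a KO, Tet2 KO, Rosa KO). Each point is 1 library, its shape gives the run, and the line is the group mean. The 4 Dnmt3a KO libraries lie between 52.8 and 99.5 CPM of Cd4, above all 13 other libraries.

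**Figure D2:**
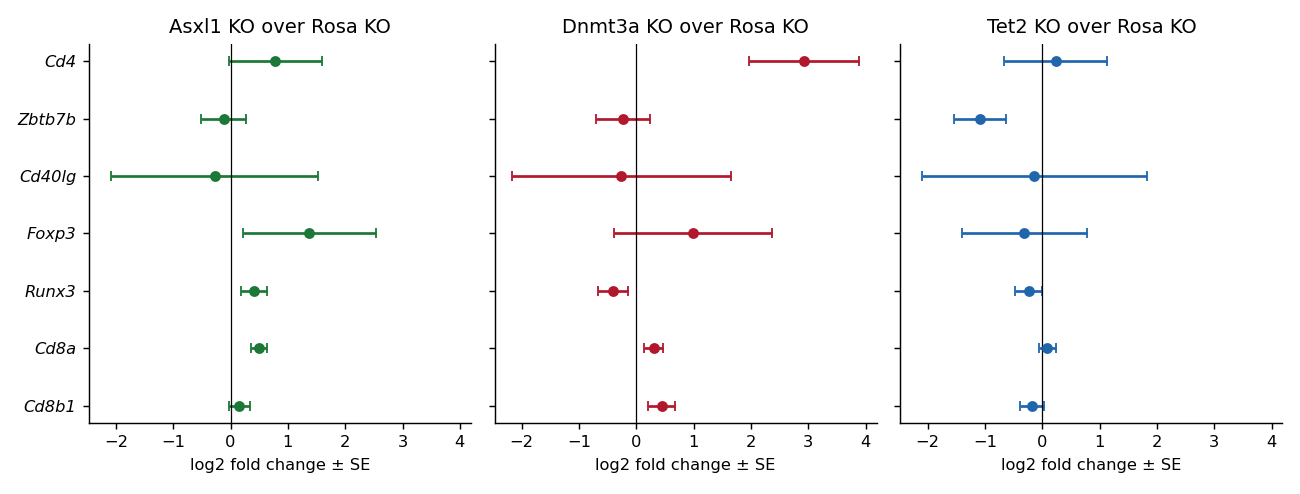
Fitted log2 fold change of each gene in Asxl1 KO, Dnmt3a KO and Tet2 KO over Rosa KO (x axis; bars are 1 SE; run is a term of the model). The Cd4 estimate of 2.93 in Dnmt3a KO is the farthest from 0, and the bars of Cd40lg and Foxp3 are the widest.

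Per kilobase of exon, the levels fell into a clear order in these cells. Over the 17 libraries Cd8b1 averaged 578 ± 154 CPM per kb and Cd8a 231 ± 52.0 CPM per kb (SD). Runx3 followed at 28.0 ± 16.7, Cd4 at 5.70 ± 7.22, Zbtb7b at 3.19 ± 1.65, Foxp3 at 0.816 ± 1.35 and Cd40lg at 0.625 ± 0.883 CPM per kb. Cd4 and Zbtb7b, and likewise Foxp3 and Cd40lg, did not differ beyond their spread between libraries. The order of Cd4 and Zbtb7b turned between groups: Cd4 stood at 17.3 and Zbtb7b at 2.75 CPM per kb in Dnmt3a KO, while Cd4 stood at 2.13 and Zbtb7b at 4.08 CPM per kb in Rosa KO.

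Cd4 (chr6:124864693-124888247, minus strand, mm10), the MHC class II coreceptor, was highest in Dnmt3a KO. Libraries Dnmt3a KO 1 to 4 stood at 72.2, 99.5, 54.2 and 52.8 CPM, against 28.1, 5.06, 3.32, 3.66 and 2.87 CPM in Rosa KO 1 to 5. All 4 Dnmt3a KO libraries were above the highest Rosa KO library, which was Rosa KO 1. The means were 69.7 ± 21.7 CPM in Dnmt3a KO (SD, n = 4) and 8.60 ± 10.9 CPM in Rosa KO (SD, n = 5). The fitted log2 fold change was 2.93 ± 0.96 (SE), with an unadjusted p of 0.00864 and an adjusted p of 0.398 in edgeR's quasi-likelihood test. The 2 Dnmt3a KO libraries of run 1 exceeded Rosa KO 1, the only control of that run, by 1.59 on the log2 scale. Without Rosa KO 1 the fitted log2 fold change was 4.19, with an adjusted p of 0.157 in edgeR, and across the other alternatives the call was made only with no filter on low counts (adjusted p 1.1e-07, edgeR).

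In Asxl1 KO 1 to 4 the Cd4 level was 13.3, 4.41, 19.2 and 6.75 CPM, and in Tet2 KO 1 to 4 it was 13.9, 0.0904, 4.50 and 6.64 CPM. Both groups overlapped Rosa KO, with log2 fold changes of 0.78 ± 0.81 for Asxl1 KO and 0.23 ± 0.90 for Tet2 KO (SE). Tet2 KO 2 held only 2 Cd4 counts, with an exact 95% Poisson interval of 0.0110 to 0.327 CPM that covers counting error only, while the other libraries held 19 to 2048 counts. Against the other knockouts, Cd4 in Dnmt3a KO again did not overlap. The log2 fold change was -2.15 ± 1.02 for Asxl1 KO over Dnmt3a KO (adjusted p 0.465 in edgeR) and 2.69 ± 0.95 for Dnmt3a KO over Tet2 KO (adjusted p 0.711 in edgeR). In run 2 the pair of Dnmt3a KO libraries lay 5.06 on the log2 scale above the pair of Tet2 KO libraries, of which Tet2 KO 2 is 1.

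Cd4 is also made by macrophages, monocytes and some dendritic cells, and in bulk RNA fewer or more cells of a type and less or more RNA per cell cannot be told apart. The libraries held transcripts of such cells. The summed level of 12 macrophage and monocyte genes was 517 to 1185 CPM in Dnmt3a KO and 489 to 1297 CPM in Rosa KO. It was 558 to 907 CPM in Asxl1 KO, and in Tet2 KO it was 686 to 913 CPM except in Tet2 KO 2, where it was 54.8 CPM. That is the library with 2 Cd4 counts. It also had the lowest summed level of 12 B cell genes among the 17 libraries, at 148 CPM. Its sum of 12 dendritic cell genes, 254 CPM, was the highest of Tet2 KO. None of the 12 macrophage and monocyte genes passed in Dnmt3a KO against Rosa KO. Their median log2 fold change was 0.35, beside -0.0030 over all tested genes. Csf1r, the macrophage growth factor receptor, stood at 67.3, 112, 42.7 and 64.96 CPM in libraries Dnmt3a KO 1 to 4, against 93.2, 27.6, 47.2, 28.4 and 26.9 CPM in Rosa KO 1 to 5. These Csf1r ranges overlapped. Rosa KO 1 had the highest Csf1r and the highest Cd4 level of the 5 Rosa KO libraries. Csf1r is also among the genes most like Cd4 in these data, given below. The 12 genes did not all move alike, with 10 positive in the fit. Medians in Dnmt3a KO and Rosa KO were 6.26 and 13.9 CPM for C1qa, 17.9 and 27.6 for C1qb and 10.2 and 15.5 for C1qc. For Lyz2 they were 478 and 456 CPM, for Mpeg1 119 and 82.6 and for Vcam1 53.6 and 27.2. At no library were Lyz2, Mpeg1 or Csf1r at 0, and in each of Tet2 KO 2, Rosa KO 2 and Rosa KO 4 just 1 of the 12 genes was. The summed level of 12 dendritic cell genes was 176 to 198 CPM in Dnmt3a KO and 176 to 288 CPM in Rosa KO. It was 203 to 249 CPM in Asxl1 KO and 175 to 254 CPM in Tet2 KO. With the mean log2 CPM of these genes, Cd4 had r = 0.46 and Spearman rho = 0.38 over the 17 libraries. The part of macrophages, monocytes or dendritic cells in the Cd4 difference was not tested.

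**Figure D3:**
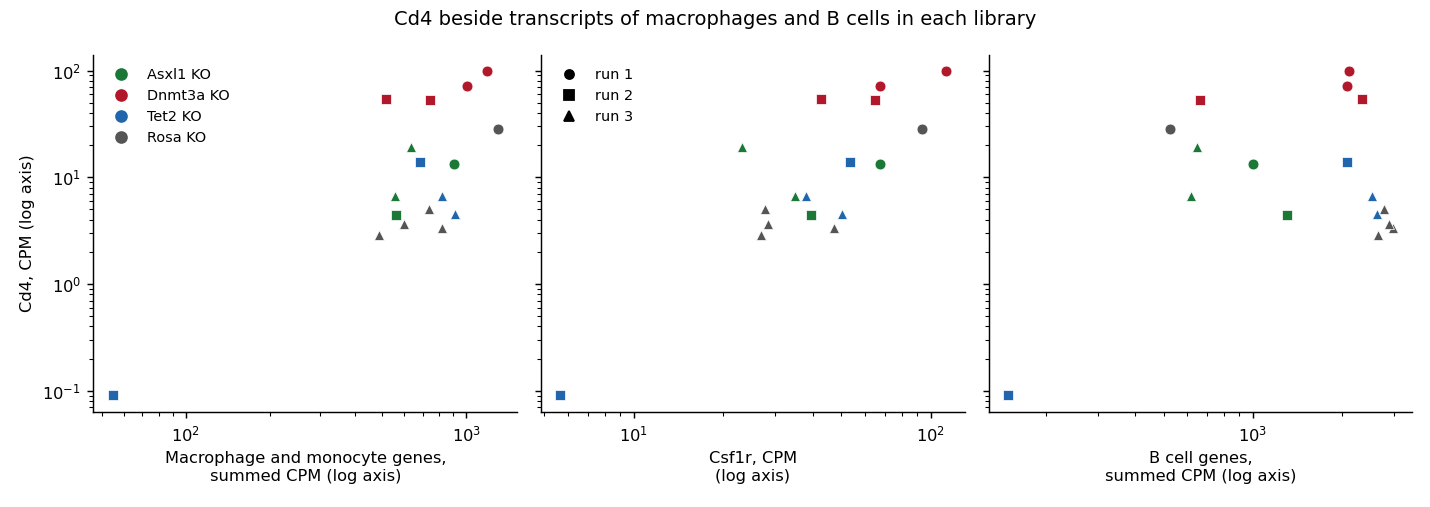
Cd4 level in CPM (y axis, log scale) against the summed CPM of 12 macrophage and monocyte genes (left), the CPM of Csf1r (middle) and the summed CPM of 12 B cell genes (right), all on log x axes. Each point is 1 library, coloured by group and shaped by run. The 4 Dnmt3a KO points lie above the others at macrophage sums of 517 to 1185 CPM, and Tet2 KO 2 stands alone at the lower left with 54.8 CPM. In the right panel Tet2 KO 2 is again at the lower left, with a B cell sum of 148 CPM.

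The genes whose log2 CPM was most like that of Cd4 across the 17 libraries, out of 9689 genes whose mean reached 5 CPM, were Thbs1 with r = 0.87, Lrp1 with r = 0.84 and Csf1r with r = 0.82 (Spearman rho 0.74, 0.72 and 0.66). Thbs1 encodes thrombospondin-1 and Lrp1 an endocytic receptor. After subtraction of the run means, r was 0.82 for Thbs1, 0.79 for Lrp1 and 0.76 for Csf1r. With the mean log2 CPM of the 12 macrophage and monocyte genes, Cd4 had r = 0.77 and rho = 0.59, and with that of the 12 B cell genes r = 0.26 and rho = -0.29. The libraries share runs and depth with each other, and Tet2 KO 2 is the lowest in both measures of the macrophage relation. That library is also the lowest in the B cell genes. With the other members Cd4 reached r = 0.49 at most, for Cd8b1.

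Set against Cd8a in the same library, Cd4 counts were 5.69 to 10.2% of Cd8a counts in Dnmt3a KO and 0.448 to 2.91% in Rosa KO. The share was 0.603 to 1.69% in Asxl1 KO and 0.0125 to 2.15% in Tet2 KO. The mean log2 ratio was -3.72 ± 0.35 in Dnmt3a KO (SD, n = 4) and -7.06 ± 1.12 in Rosa KO (SD, n = 5), a 10.1-fold difference. An exact permutation test, two-sided, gave p = 0.0159 with 0.00794 as the smallest value possible, and p = 0.119 after adjustment over the 9 ratio tests. Unlike the edgeR fit, this test took no account of run, and most Rosa KO libraries are of a run without Dnmt3a KO. The difference was higher in 4 of 4 Dnmt3a KO libraries, and within run 1 it was 1.63 on the log2 scale.

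**Figure D4:**
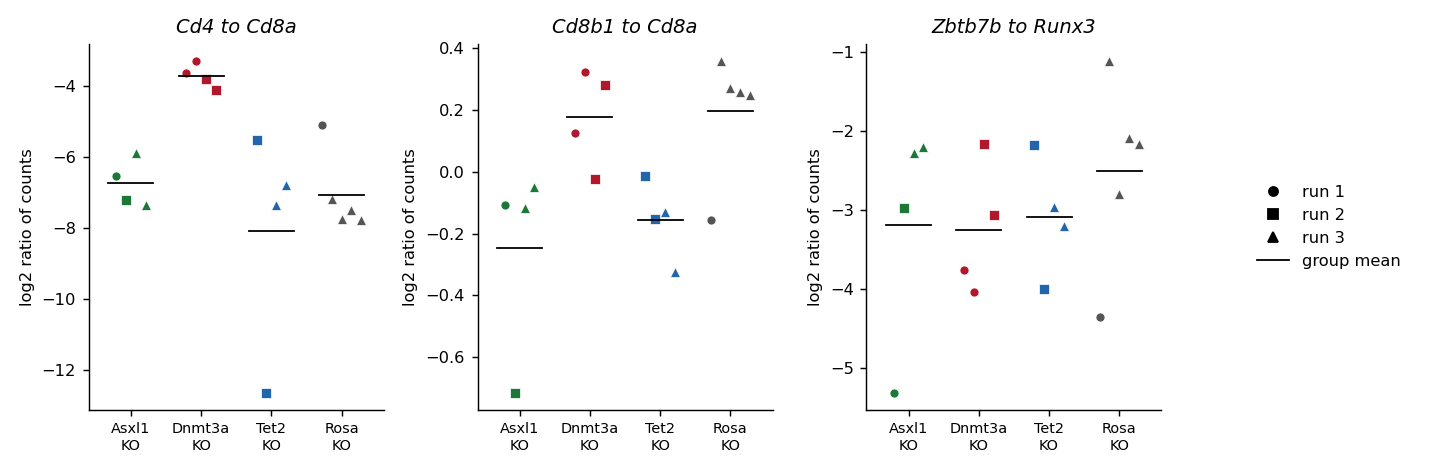
Log2 ratio of counts in each library for Cd4 to Cd8a, Cd8b1 to Cd8a and Zbtb7b to Runx3, by group, with run as the point shape and the group mean as the line. In the left panel the 4 Dnmt3a KO libraries do not overlap Rosa KO; in the middle panel the 4 run 3 libraries of Rosa KO lie above all Asxl1 KO and Tet2 KO libraries.

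Of 16 other genes of helper CD4 T cells, 11 were tested, and 0 passed in Dnmt3a KO against Rosa KO, where their median log2 fold change was 0.80 and 10 of 11 were positive. At an unadjusted p under 0.05, 4 of the 11 passed there, beside 8.03% of all tested genes. Many of these genes were near the floor, with 3 to 7 of the 16 at 0 counts in each library. The standard errors of the 11 log2 fold changes in Dnmt3a KO ran from 0.20 to 2.56. In Asxl1 KO against Rosa KO 0 passed and the median was 0.58, with 5 of 11 at an unadjusted p under 0.05, beside 15.7% of all tested genes. In Tet2 KO against Rosa KO 1 rose, with a median of 0.10, beside 1.47% of all tested genes passing. That gene was Icos, a costimulatory receptor of activated T cells of either lineage, with 166 ± 7.46 CPM in Tet2 KO (SD, n = 4) and 89.4 ± 11.9 CPM in Rosa KO (SD, n = 5). Its log2 fold change was 1.08 ± 0.18 (SE; adjusted p 0.00154, edgeR), and its call was lost without the run term (adjusted p 0.110, edgeR).

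Zbtb7b (chr3:89377644-89393673, minus strand), the gene of ThPOK, was expressed in all 17 libraries at 8.68 to 35.6 CPM. Libraries Tet2 KO 1 to 4 stood at 18.3, 8.68, 9.75 and 10.4 CPM, against 10.8, 35.6, 11.7, 35.6 and 20.4 CPM in Rosa KO 1 to 5. The Rosa KO libraries split into a low pair and a higher set, and the ranges overlapped. The log2 fold change of Tet2 KO over Rosa KO was -1.08 ± 0.45 (SE), with an unadjusted p of 0.0224 and an adjusted p of 0.294 (edgeR), and within run 3 the difference was -1.21. Asxl1 KO had 10.7, 18.2, 22.2 and 29.5 CPM, and Dnmt3a KO had 11.4, 9.76, 27.8 and 12.6 CPM. Their log2 fold changes over Rosa KO were -0.12 ± 0.39 and -0.23 ± 0.47 (SE), and for either the sign turned with the replicate number as a block. The gene overlaps the antisense transcript Gm15417, and whether counting used the strand is not given in the sources used here, so reads of the pair could have been shared. Its most alike gene was Akap8l (r = 0.79), which encodes a nuclear anchoring protein, and with Runx3 it had r = -0.23.

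Cd40lg (chrX:57212143-57224042, plus strand), the ligand of CD40, was near the detection limit. It had 0 counts in Asxl1 KO 1, Rosa KO 3 and Rosa KO 5, where 3 counts, the floor used for a count of 0, correspond to 0.185, 0.112 and 0.453 CPM. In the other libraries it reached at most 1.262 CPM in Asxl1 KO, 2.53 CPM in Dnmt3a KO, 1.27 CPM in Tet2 KO and 4.24 CPM in Rosa KO, the last of these in Rosa KO 1. No difference between groups was detectable at this depth: the log2 fold changes over Rosa KO lay between -0.28 and -0.14 with standard errors of 1.81 to 1.96.

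Foxp3 (chrX:7579676-7595243, plus strand), the factor of regulatory T cells, was low with a single high library. Asxl1 KO 1 had 26.2 CPM from 425 counts, while Asxl1 KO 2 to 4 had 2.80, 0.226 and 2.36 CPM. Dnmt3a KO had 6.65, 1.12, 6.03 and 6.84 CPM, Tet2 KO 0.731 to 1.63 CPM, and Rosa KO 2.79, 0.158, 0.0373, 2.11 and 1.81 CPM. Dnmt3a KO had 3 of 4 libraries above every Rosa KO library, yet within run 1 the difference was -0.015 on the log2 scale, and the fitted log2 fold change was 0.99 ± 1.38 (SE; adjusted p 0.916, edgeR). For Asxl1 KO over Rosa KO it was 1.37 ± 1.16 (SE; adjusted p 0.621, edgeR), and 0.23 without Asxl1 KO 1. Foxp3 overlaps Flicr on the same strand and Ccdc22, Ppp1r3f and Gm36995 on the opposite strand, so its low counts may hold reads of these genes.

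Of 15 regulatory T cell genes, 11 were tested, and 0 passed in any of the 3 knockouts against Rosa KO, with medians of 0.28 in Asxl1 KO, 0.87 in Dnmt3a KO and 0.39 in Tet2 KO on the log2 scale. At an unadjusted p under 0.05, 3 of 11 passed in each, beside 15.7, 8.03 and 12.2% of all tested genes. In each library 2 to 7 of the 15 genes had 0 counts. The standard errors of the 11 log2 fold changes in Dnmt3a KO ran from 0.26 to 2.16. The summed level of the 15 genes was 296, 221, 403 and 429 CPM in Asxl1 KO 1 to 4, the first being the library with the high Foxp3 level. Il2ra, the high-affinity interleukin-2 receptor chain, stood at 29.6 CPM in Asxl1 KO 1, the highest of Asxl1 KO, while Rosa KO 3 had 44.5 CPM. The checkpoint receptor Ctla4 had 41.6 CPM in Asxl1 KO 1, against 171 CPM in Asxl1 KO 4. The part of regulatory T cells in the Foxp3 level was not tested. Ikzf2, encoding Helios, had 45.3 to 129 CPM in Dnmt3a KO and 16.5 to 63.6 CPM in Rosa KO, and these ranges overlapped. Across the 17 libraries Foxp3 was most like Hivep1 (r = 0.88), Arhgap21 (r = 0.88) and Gpr107 (r = 0.87). Among the members it was most like Runx3, with r = 0.72, or 0.62 after subtraction of the run means, and the same library, Asxl1 KO 1, was the highest for both.

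Runx3 (chr4:135120645-135177990, plus strand) encodes the runt-domain factor of the CD8 lineage and is read from a distal and a proximal promoter. Both windows are shown because RUNX motifs and CG dinucleotides, the site of DNA methylation, differ in number between them, together with that of Cd8a, a known Runx3 target. They run from upstream of the annotated start to just past it, from RefSeq on GRCm38.p6 (of which mm10 is another name), 5′ to 3′ on the gene's strand, with CG dinucleotides in capitals.
Runx3 distal, chr4:135120395-135120694, plus strand: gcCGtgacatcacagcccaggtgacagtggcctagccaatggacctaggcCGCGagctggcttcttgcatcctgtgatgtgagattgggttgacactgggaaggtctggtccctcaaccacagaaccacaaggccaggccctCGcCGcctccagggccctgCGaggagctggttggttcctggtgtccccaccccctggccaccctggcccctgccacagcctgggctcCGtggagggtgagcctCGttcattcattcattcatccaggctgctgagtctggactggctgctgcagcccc
Runx3 proximal, chr4:135152295-135152594, plus strand: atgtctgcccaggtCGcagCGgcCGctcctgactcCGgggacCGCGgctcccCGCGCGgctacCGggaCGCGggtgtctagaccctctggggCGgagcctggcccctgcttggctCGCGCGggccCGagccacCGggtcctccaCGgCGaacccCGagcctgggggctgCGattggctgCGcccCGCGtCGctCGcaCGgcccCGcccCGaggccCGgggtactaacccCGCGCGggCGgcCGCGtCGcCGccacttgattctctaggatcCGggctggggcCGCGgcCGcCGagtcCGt
Cd8a, chr6:71373177-71373476, plus strand: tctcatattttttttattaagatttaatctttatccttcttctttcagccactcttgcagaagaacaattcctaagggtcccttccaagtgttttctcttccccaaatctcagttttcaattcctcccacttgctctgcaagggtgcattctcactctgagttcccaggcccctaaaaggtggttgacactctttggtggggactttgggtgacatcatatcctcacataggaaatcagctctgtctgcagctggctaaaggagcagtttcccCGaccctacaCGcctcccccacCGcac
The distal Runx3 window held 8 CG dinucleotides, the proximal one 45 and the Cd8a window 3, beside a median of 7 over 32851 windows of 300 bases, of which 1.93% held 45 or more. The RUNX motif ACCACA, searched on both strands with its complement TGTGGT, occurred 2 times in the distal window, the first at position 117 counted from its 5′ end, and in neither of the other windows. Of all windows, 16.8% held at least 1 such motif and 1.81% at least 2. A match is a description of letters, and the files hold no methylation values and do not tell the products of the promoters apart. RefSeq windows were matched for 4 of the 7 genes, here Runx3 and Cd8a besides Zbtb7b and Foxp3.

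Runx3 stood at 428, 144, 108 and 135.9 CPM in Asxl1 KO 1 to 4 and at 155, 161, 124.8 and 105 CPM in Dnmt3a KO 1 to 4. It had 82.8, 140.0, 76.3 and 96.6 CPM in Tet2 KO 1 to 4, and 221, 76.9, 81.5, 151 and 91.9 CPM in Rosa KO 1 to 5. Asxl1 KO 1 and Rosa KO 1, the highest libraries, are both of run 1, and run alone accounted for 56.3% of the variance of Runx3 log2 CPM, group alone for 25.0%. No knockout separated from Rosa KO: the log2 fold changes were 0.41 ± 0.22 in Asxl1 KO, -0.41 ± 0.27 in Dnmt3a KO and -0.23 ± 0.24 in Tet2 KO (SE), and in Dnmt3a KO the sign turned without the run term, where it was 0.13. Asxl1 KO exceeded Dnmt3a KO by 0.82 ± 0.24 (SE; unadjusted p 0.00249, adjusted p 0.189 in edgeR) and Tet2 KO by 0.65 ± 0.24 (SE; unadjusted p 0.0115, adjusted p 0.439 in edgeR). Without Asxl1 KO 1, the library at 428 CPM, the log2 difference of Asxl1 KO was 0.50 from Dnmt3a KO, 0.47 from Tet2 KO and 0.19 from Rosa KO. The log2 ratio of Zbtb7b to Runx3 was -3.20 ± 1.46 in Asxl1 KO, -3.26 ± 0.83 in Dnmt3a KO, -3.09 ± 0.75 in Tet2 KO (SD, n = 4 each) and -2.50 ± 1.20 in Rosa KO (SD, n = 5), with exact permutation p-values of 0.437, 0.310 and 0.421 (two-sided), each 0.655 after adjustment over 9 tests. Genes most like Runx3 were Fam168a (r = 0.92), Hk1 (r = 0.91), which encodes hexokinase 1, and Gpd2 (r = 0.90), which encodes the mitochondrial glycerol-3-phosphate dehydrogenase. Runx3 also overlaps an antisense transcript, Gm16224.

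Cd8a (chr6:71373427-71379171, plus strand), the CD8 alpha chain, was the member nearest to a call against Rosa KO. Libraries Asxl1 KO 1 to 4 stood at 1240, 657, 1132 and 1118 CPM, against 966, 744, 720, 666 and 641 CPM in Rosa KO 1 to 5. Asxl1 KO 1, 3 and 4 were above every Rosa KO library, and Asxl1 KO 2 was below 4 of the 5. The fitted log2 fold change was 0.50 ± 0.14 (SE), with an unadjusted p of 0.00152 and an adjusted p of 0.0670 (edgeR); the difference was 0.36 within run 1 and 0.70 within run 3. It passed with DESeq2 (adjusted p 0.0385), with no filter (adjusted p 0.0243, edgeR), without Asxl1 KO 2 (adjusted p 0.00704, edgeR) and without Rosa KO 1 (adjusted p 0.0458, edgeR), and no other alternative gave a call. Dnmt3a KO had 906, 977, 756 and 928 CPM, and differed from Rosa KO by 0.30 ± 0.17 on the log2 scale (SE; adjusted p 0.689, edgeR). Tet2 KO had 649, 725, 744 and 736 CPM, and differed by 0.09 ± 0.15 (SE; adjusted p 0.889, edgeR).

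Of 9 pan T cell genes tested, 5 rose in Asxl1 KO against Rosa KO and 0 fell, beside 1.64% of all tested genes passing. The median log2 fold change of the 9 genes was 0.67. In Dnmt3a KO 0 of them passed (0.216% of all tested genes) and in Tet2 KO 1 of them rose (1.47% of all tested genes passing). Their summed level was 10122, 3733, 6053 and 6499 CPM in libraries Asxl1 KO 1 to 4, against 5967, 4070.1, 4071, 3877 and 3665 CPM in Rosa KO 1 to 5. Asxl1 KO 2, the library low in Cd8a and Cd8b1, was below 4 of the 5 Rosa KO libraries. B cell transcripts gave a median of -1.07 in Asxl1 KO against Rosa KO, with 0 of 12 passing. Their summed level was 1005, 1307, 646 and 618 CPM in libraries Asxl1 KO 1 to 4. It was 525, 2774, 2991, 2886 and 2659 CPM in Rosa KO 1 to 5. Rosa KO 2 to 5 were thus above every Asxl1 KO library, and Rosa KO 1 was below them all. The part of other cells in the Cd8a difference was not tested. The genes most like Cd8a were Cd82 (r = 0.95), a tetraspanin, Acot7 (r = 0.90) and Cd2 (r = 0.90), an adhesion receptor of T cells.

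Cd8b1 (chr6:71322788-71337492, plus strand), the CD8 beta chain, lies 35934 bases upstream of Cd8a on the same strand. Libraries Tet2 KO 1 to 4 stood at 642, 651, 680 and 588 CPM, against 867, 955, 869, 797 and 762 CPM in Rosa KO 1 to 5, and the ranges did not overlap. The fitted log2 fold change with run as a term was nevertheless -0.18 ± 0.21 (SE; adjusted p 0.814, edgeR), while within run 3 the difference was -0.41. Dnmt3a KO had 988, 1224, 745 and 1128 CPM, with 0.44 ± 0.23 over Rosa KO (SE; adjusted p 0.664, edgeR) and 0.62 ± 0.21 over Tet2 KO (SE; unadjusted p 0.00714, adjusted p 0.607 in edgeR). Asxl1 KO had 1150, 399.9, 1044 and 1080 CPM, the lowest of all 17 libraries being Asxl1 KO 2, and 0.15 ± 0.19 over Rosa KO (SE; adjusted p 0.765, edgeR). Without Asxl1 KO 2, Asxl1 KO exceeded Tet2 KO by 0.70 for Cd8b1 (adjusted p 0.0350, edgeR) and by 0.62 for Cd8a (adjusted p 0.0420, edgeR), against 0.34 and 0.41 with it, neither of which passed.

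Across the 17 libraries Cd8a and Cd8b1 had r = 0.75, the highest between members, and r = 0.65 after subtraction of the run means. Their ratio was not constant. Cd8b1 counts were 60.9 to 96.6% of Cd8a counts in Asxl1 KO, 98.5 to 125.2% in Dnmt3a KO, 79.9 to 99.0% in Tet2 KO and 89.7 to 128% in Rosa KO. Rosa KO 1 was the library at 89.7%, and Rosa KO 2 to 5 lay between 119 and 128%, above every Asxl1 KO and Tet2 KO library. The log2 ratio was lower by 0.44 in Asxl1 KO and by 0.35 in Tet2 KO than in Rosa KO, with a two-sided exact permutation p of 0.0397 for each, 0.119 after adjustment over 9 tests. These tests took no account of run. In Dnmt3a KO the difference was -0.019 (exact permutation p 0.857). Within run 3 the difference was -0.37 for Asxl1 KO and -0.51 for Tet2 KO, whereas within run 1 it was 0.049 for Asxl1 KO and 0.38 for Dnmt3a KO, each against the single library Rosa KO 1. Asxl1 KO 2 alone moved the Asxl1 KO difference to -0.29 when left out.

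Wider sets of genes put the members in context. Of 26 regulators of the CD4 or CD8 choice other than the members, all tested, 3 rose and 2 fell in Asxl1 KO against Rosa KO, 1 rose in Dnmt3a KO and 1 rose and 1 fell in Tet2 KO. Their median log2 fold changes were -0.0029, -0.030 and 0.087, beside 0.00043, -0.0030 and -0.020 over all tested genes. Of all tested genes, 1.64, 0.216 and 1.47% passed in these comparisons. Tcf7, whose product TCF-1 acts upstream of both lineages in the thymus and marks stem-like CD8 T cells, rose in all 3 knockouts. It averaged 157 ± 151 CPM in Asxl1 KO, 164 ± 35.9 CPM in Dnmt3a KO, 98.1 ± 20.5 CPM in Tet2 KO (SD, n = 4 each) and 36.1 ± 36.9 CPM in Rosa KO (SD, n = 5). The log2 fold changes were 1.94 ± 0.26, 1.79 ± 0.31 and 1.95 ± 0.27 (SE), with adjusted p-values of 8.6e-05, 0.00510 and 0.000268 (edgeR). These 3 comparisons share the Rosa KO libraries. Each call held when any 1 library was left out and none held without the run term, where the adjusted p was 0.188, 0.183 and 0.723 (edgeR); with the replicate number as a block, that of Dnmt3a KO was lost too (adjusted p 0.753, edgeR).

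**Figure D5:**
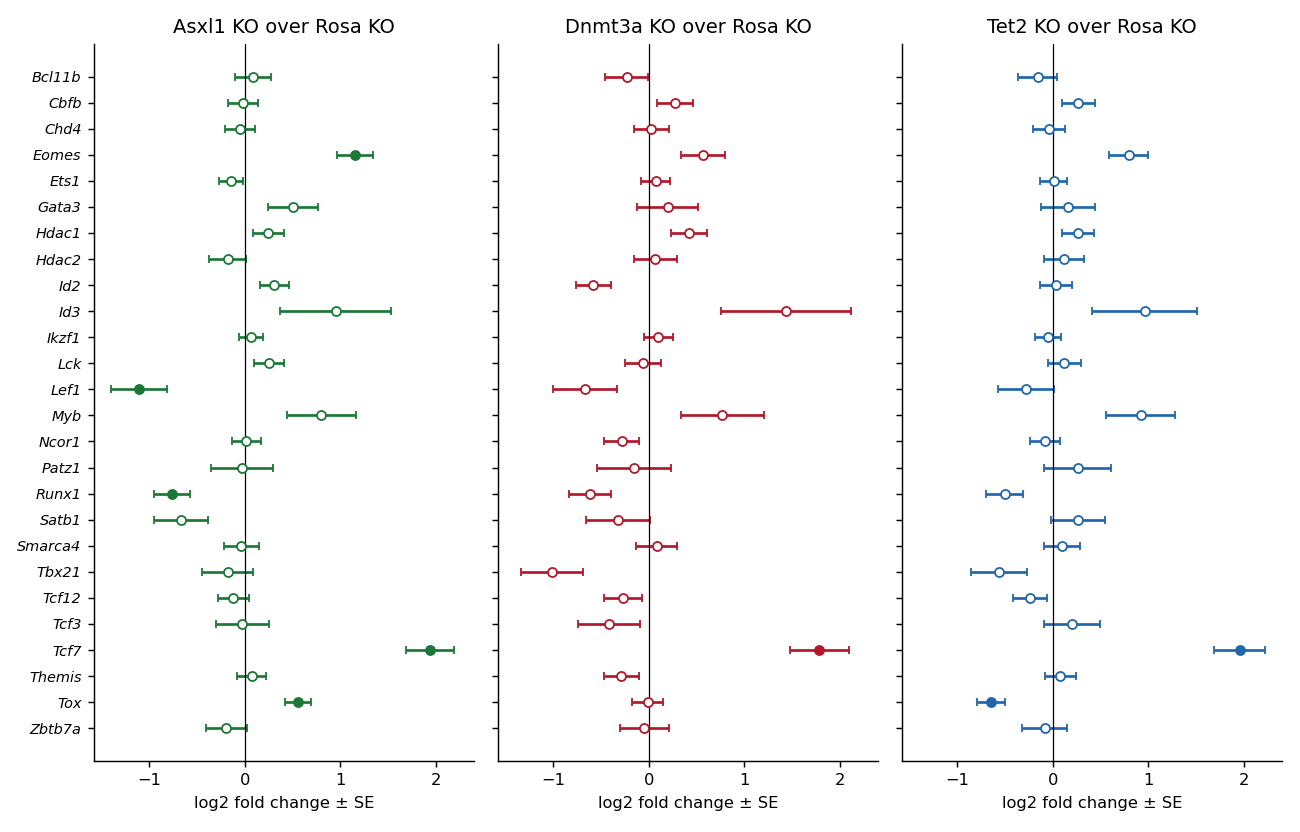
Fitted log2 fold change of 26 regulators of the CD4 or CD8 choice in Asxl1 KO, Dnmt3a KO and Tet2 KO over Rosa KO (x axis; bars are 1 SE). Filled points passed an adjusted p of 0.05 and open points did not: 5 are filled in Asxl1 KO, 1 in Dnmt3a KO and 2 in Tet2 KO, and Tcf7 is filled in all 3 panels.

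In Asxl1 KO the T-box factor Eomes also rose, by 1.15 ± 0.19 on the log2 scale (SE; adjusted p 0.00128, edgeR), as did the HMG-box factor Tox, by 0.56 ± 0.14 (SE; adjusted p 0.0349, edgeR). Runx1, the paralogue of Runx3 that silences Cd4 in immature thymocytes, fell by 0.76 in Asxl1 KO (adjusted p 0.0391, edgeR), and Lef1, a partner of TCF-1, fell by 1.11 (adjusted p 0.0484, edgeR). Tox fell by 0.65 in Tet2 KO (adjusted p 0.0249, edgeR), so that its calls in Asxl1 KO and Tet2 KO were of opposite sign. The Eomes call held when any 1 library was left out. Those of Tox, Runx1 and Lef1 in Asxl1 KO were lost in 7, 5 and 6 of the 9 such fits, that of Tox in Tet2 KO in 5 of 9, and all 5 were lost without the run term.

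Of 14 genes enriched in CD8 over CD4 T cells, all tested, 2 rose and 2 fell in Asxl1 KO against Rosa KO. In Dnmt3a KO 3 fell and in Tet2 KO 1 rose. Over all tested genes, 1.64, 0.216 and 1.47% passed in these comparisons. The chemokine gene Xcl1 rose in Asxl1 KO, at 26.1 ± 12.5 CPM, and in Tet2 KO, at 19.2 ± 11.4 CPM (SD, n = 4 each), against 6.38 ± 2.83 CPM in Rosa KO (SD, n = 5), with adjusted p-values of 0.00199 and 0.00538 (edgeR). Cst7, encoding cystatin F, rose in Asxl1 KO by 0.86 ± 0.16 on the log2 scale (SE; adjusted p 0.00334, edgeR). Gzmb, encoding the cytotoxic protease granzyme B, fell in Asxl1 KO and in Dnmt3a KO, to 1015 ± 217 and 765 ± 139 CPM (SD, n = 4 each), against 1685 ± 241 CPM in Rosa KO (SD, n = 5), with adjusted p-values of 0.0145 and 0.00685 (edgeR). Klrc1, encoding the inhibitory receptor NKG2A, fell in Asxl1 KO by 1.13 (adjusted p 0.0117, edgeR) and in Dnmt3a KO by 1.57 (adjusted p 0.00881, edgeR), and Klrk1, encoding NKG2D, fell in Dnmt3a KO by 1.18 (adjusted p 0.0273, edgeR). Leaving out 1 library at a time, the Klrk1 call was lost in 7 of 9 fits. Those of Gzmb and Klrc1 in Asxl1 KO were lost without Asxl1 KO 4, that of Gzmb in Dnmt3a KO without Rosa KO 1, that of Klrc1 in Dnmt3a KO without Dnmt3a KO 1 and that of Xcl1 in Tet2 KO without Tet2 KO 4. Without the run term, the calls of Gzmb and Klrc1 in Dnmt3a KO held and the others of these 8 were lost. NK cells also express these receptors. Of 11 genes listed for NK cells, 3 fell and 1 rose in Asxl1 KO. In Dnmt3a KO 3 fell and in Tet2 KO 2 fell, beside the same shares over all tested genes. The list is not specific to NK cells: Eomes, the 1 that rose, is also among the regulators above. Another of its genes is among the 14 CD8-enriched genes. The summed level of the 11 genes was 1106 to 2010 CPM in Asxl1 KO and 1151 to 2311 CPM in Dnmt3a KO. It was 1988 to 2831 CPM in Tet2 KO and 2781 to 3793 CPM in Rosa KO. The part of NK cells in these changes was not tested. Dendritic cell genes and those of gamma delta and innate-like T cells gave 0 calls of 12 and of 3 tested in each knockout against Rosa KO. At an unadjusted p under 0.05, 1 dendritic gene passed in Asxl1 KO, 1 in Dnmt3a KO and 0 in Tet2 KO, and none of the others did.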

How the data were processed

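RNA from 17 libraries was studied. The authors deposited 1 table of raw counts per gene for each library, with NCBI gene numbers and symbols. STAR 2.5.3a, DESeq2 1.26.0 and build mm10 are listed, with no role given, per the submitters' processing notes; how reads were counted, and on which strand, is not given in the sources used here. Members were matched by symbol and gene number. Positions come from RefSeq on GRCm38.p6, and strands, exon lengths and overlapping genes from GENCODE M21 on mm10. TMM factors scaled the counts, and edgeR 4.0.16 under R 4.3.3 tested them (quasi-likelihood F test, robust; group and run; 11 residual degrees of freedom), after filterByExpr with a minimum count of 10 and total of 15, with p-values adjusted by the Benjamini-Hochberg method. The log2 CPM values use a prior count of 2. Ratios of counts, with 0.5 added to each, were compared by exact permutation tests (126 permutations) written in Python 3.11.15. These took all libraries of the 2 groups, without regard to run. Their p-values were adjusted with scipy 1.17.1. Simulated counts with known changes were used to test the fit. The members and the 10 gene lists were chosen with earlier results of these data known. Named are all members, up to 5 passing genes for each of 4 lineage lists in each knockout against Rosa KO, and the 3 genes most like each member, predicted genes left out, from which those given were taken; single marker genes of other cells are named only by level. Alternatives were no run term, RLE size factors, no filter, DESeq2 1.42.0, a replicate block, 5 counts added in ratios, and each library left out. The 28 pairs of libraries within groups all differed beyond sampling noise.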

Additional observations from a re-analysis of the deposited data

Results flagged for a closer look

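In 40 groups of 4 or 5 values checked, 10 held a library that lay far from the others. The rule flags about 1 in 20 sets of independent, normally distributed values. The values here were CPM on the linear scale and log2 ratios of the same counts, so that rate need not hold. Whether 10 is an excess was not tested. Rosa KO 1, the only control of run 1, was the highest of 5 for Cd4 at 28.1 CPM, for Cd40lg at 4.24 CPM and for the log2 ratio of Cd4 to Cd8a at -5.10, and the lowest for the log2 ratio of Cd8b1 to Cd8a at -0.16. Asxl1 KO 1, also of run 1, was the highest of 4 for Foxp3 at 26.2 CPM and for Runx3 at 428 CPM. Asxl1 KO 2, of run 2, was the lowest of 4 for Cd8b1 at 399.9 CPM and for the log2 ratio of Cd8b1 to Cd8a at -0.72, a loss not shared by Cd8a to the same extent. Dnmt3a KO 3 was the highest of 4 for Zbtb7b at 27.8 CPM, and Dnmt3a KO 2 the lowest of 4 for Foxp3 at 1.12 CPM.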

How the results depend on the processing

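The number of members that passed stayed at 0 without the run term, with RLE size factors and with a replicate block in all 6 comparisons. With no filter on low counts it was 1 for Asxl1 KO against Rosa KO (Cd8a, 0.50), 1 for Dnmt3a KO against Rosa KO (Cd4, 2.94), 2 for Asxl1 KO against Dnmt3a KO and 2 for Dnmt3a KO against Tet2 KO. With DESeq2 it was 1 for Asxl1 KO against Rosa KO (Cd8a, 0.48). The cause was not tested. Leaving out 1 library gave 0 to 1 members for Asxl1 KO against Rosa KO and 0 to 2 for Asxl1 KO against Tet2 KO.

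The share of tested genes that passed moved more. For Asxl1 KO, Dnmt3a KO and Tet2 KO against Rosa KO, then Asxl1 KO against Dnmt3a KO, Asxl1 KO against Tet2 KO and Dnmt3a KO against Tet2 KO, it was 1.64, 0.216, 1.47, 0.353, 0.562 and 0.0937%. It was 0.166, 0.137, 0.166, 0.0432, 0.195 and 0.0072% without the run term, 2.68, 0.59, 1.78, 1.46, 0.906 and 0.311% with no filter (21195 genes tested), 5.23, 1.09, 3.34, 1.85, 1.29 and 0.532% with DESeq2, and 0.367, 0, 0.375, 0.0144, 0.267 and 0.0072% with the replicate block. Where the block gave 0 genes, for Dnmt3a KO against Rosa KO, edgeR had 850 at an unadjusted p under 0.05 and DESeq2 without the block called 150. The replicate numbers do not pair the samples: over 24 pairs of libraries with 1 number, the correlation of deviations ran from -0.21 to 0.16 with 2 over 0.1, and 4 libraries correlated best with their own number. Leaving out 1 library gave 0.563 to 2.61% for Asxl1 KO against Rosa KO, 0.23 to 1.39% for Tet2 KO against Rosa KO, 0.077 to 1.65% for Asxl1 KO against Dnmt3a KO, 0.244 to 0.609% for Asxl1 KO against Tet2 KO and 0.014 to 0.077% for Dnmt3a KO against Tet2 KO. The lowest of these were without Asxl1 KO 3, Tet2 KO 3, Dnmt3a KO 1, Tet2 KO 3 and Dnmt3a KO 3, and the highest of the first 4 without Asxl1 KO 2, Tet2 KO 2, Asxl1 KO 2 and Asxl1 KO 2.

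Signs turned only for values that had not passed. With the replicate block, Zbtb7b became 0.016 in Asxl1 KO and 0.46 in Dnmt3a KO against Rosa KO and -0.44 in Asxl1 KO against Dnmt3a KO, Foxp3 -0.053 in Dnmt3a KO and 0.51 in Tet2 KO, and Cd4 -0.23 in Tet2 KO. Without the run term, Runx3 became 0.13 in Dnmt3a KO against Rosa KO and 0.46 in Dnmt3a KO against Tet2 KO, and in Tet2 KO against Rosa KO Cd4 became -0.45 and Cd8a -0.068. Leaving out 1 library, the ranges against Rosa KO were, for Asxl1 KO, -0.044 to 1.48 for Cd4, -0.31 to 0.030 for Zbtb7b, -1.75 to 0.49 for Cd40lg, 0.23 to 2.07 for Foxp3, 0.19 to 0.61 for Runx3 and 0.43 to 0.61 for Cd8a. For Dnmt3a KO the range was -1.57 to 3.02 for Cd40lg, and for Tet2 KO -0.59 to 0.95 for Cd4, -0.69 to 1.77 for Cd40lg and -0.63 to 0.33 for Foxp3. For Asxl1 KO against Dnmt3a KO it was -0.10 to 0.34 for Zbtb7b and -0.46 to 0.091 for Cd8b1, for Asxl1 KO against Tet2 KO -0.23 to 1.44 for Cd4, and for Dnmt3a KO against Tet2 KO -0.35 to 0.029 for Runx3. Log2 ratios ranged from -0.11 to 0.047 for Cd8b1 to Cd8a in Dnmt3a KO, -1.87 to 0.50 for Cd4 to Cd8a in Tet2 KO and -1.16 to 0.015 for Zbtb7b to Runx3 in Asxl1 KO. Of the 17 named calls of list genes, 15 were lost without the run term and 9 with the replicate block, none with RLE factors, DESeq2 or no filter.

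Depth limits Cd40lg, which had at most 79 counts in any library, Foxp3, with as few as 1 count in Rosa KO 3, and Cd4, with 19 counts in Rosa KO 5 and 2 in Tet2 KO 2.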
